A study of Homo sapiens with 9 samples.

Results

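The guanylate-binding proteins GBP1, GBP2, GBP3, GBP4 and GBP5 were followed in PC-3 cells treated with decitabine alone or together with S-adenosylmethionine (SAM). The 5 genes were found by matching the Ensembl identifiers of the count files to gene symbols, and they are 5 of the 60617 genes in the files. PC-3, grown here in RPMI medium, is a widely used human cell line of prostate cancer origin. The 9 RNA-seq libraries comprise 3 of vehicle controls (Ctrl), 3 of decitabine alone at 1 µM (Dec) and 3 of decitabine at 1 µM plus SAM at 200 µM (Dec_Sam, the combination treatment). Doses are those of the study's methods, and treatment lasted 5 days. SAM without decitabine is not analysed here. Decitabine is a cytidine analogue that is built into DNA and traps DNA methyltransferases, so that methylation is lost as cells divide, and SAM is the methyl donor of most cellular methylation reactions. The labels do not say whether the 3 libraries of a group came from separate cultures, so p-values measure only the spread between these libraries.

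Guanylate-binding proteins are large GTPases of the dynamin superfamily. They are among the most strongly interferon-inducible genes of human cells, above all with interferon-gamma, which acts in part through the transcription factor IRF1. After infection they gather on bacteria and on the membranes of vacuoles that hold pathogens, open these to the cytosol and help to activate inflammatory caspases. GBP1, GBP2 and GBP5 end in a prenylation motif that carries them to membranes, and GBP3 and GBP4 do not.

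The 5 genes lie together, with the downstream end of GBP7 inside the span of GBP2, on the minus strand of chromosome 1 (GRCh38, positions of GENCODE release 44), in a stretch of 266 kb. GBP3 (ENSG00000117226) spans 89006679 to 89022894 and GBP1 (ENSG00000117228) spans 89051882 to 89065360. GBP2 (ENSG00000162645) follows at 89106132 to 89150456, GBP4 (ENSG00000162654) at 89181144 to 89198942 and GBP5 (ENSG00000154451) at 89256189 to 89272860. All 5 are protein-coding, with canonical transcripts of 2883 bases for GBP1, 4088 for GBP2, 3037 for GBP3, 6141 for GBP4 and 6812 for GBP5.

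The promoter sequences of GBP1, GBP3 and GBP4 are shown, since GBP2 and GBP5 had no entry among the promoters used. All 3 hold the core of an interferon-stimulated response element, the DNA site of interferon-activated factors. They run from 250 bases before to 30 bases after the RefSeq start site on GRCh38.p14, minus strand. The motif searched was GAAA, any 2 bases, then GAAA, on either strand, and capitals mark its matches, which here read TTTC, 2 bases, TTTC.
GBP1, chr1:89065179-89065458: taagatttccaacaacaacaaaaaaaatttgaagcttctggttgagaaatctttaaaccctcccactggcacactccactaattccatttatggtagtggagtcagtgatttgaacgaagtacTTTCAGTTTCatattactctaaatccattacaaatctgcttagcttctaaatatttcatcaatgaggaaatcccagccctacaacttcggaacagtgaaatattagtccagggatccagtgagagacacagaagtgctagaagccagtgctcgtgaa
GBP3, chr1:89022837-89023116: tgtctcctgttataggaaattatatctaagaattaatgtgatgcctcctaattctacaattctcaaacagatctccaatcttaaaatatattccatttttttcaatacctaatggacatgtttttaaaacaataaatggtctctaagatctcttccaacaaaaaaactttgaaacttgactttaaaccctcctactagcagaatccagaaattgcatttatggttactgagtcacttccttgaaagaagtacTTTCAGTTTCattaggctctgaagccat
GBP4, chr1:89198913-89199192: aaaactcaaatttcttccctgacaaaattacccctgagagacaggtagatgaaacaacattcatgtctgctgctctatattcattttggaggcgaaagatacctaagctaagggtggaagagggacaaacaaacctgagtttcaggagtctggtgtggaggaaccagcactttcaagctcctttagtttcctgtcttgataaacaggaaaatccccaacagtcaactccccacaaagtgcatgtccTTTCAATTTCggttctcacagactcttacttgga
Each promoter held 1 match. Its first base on the printed strand lay at -127 in GBP1, at 3 in GBP3 and at -4 in GBP4, counted from the RefSeq start site as 1. The GENCODE spans of GBP1 and GBP3 begin upstream of these start sites, at 89065360 and 89022894. The match of GBP1 therefore lies inside its GENCODE span. Of 34796 promoters of 300 bases in the same table, 3.57% held the motif on either strand. The promoters of the relatives GBP6 and GBP7, searched in the same way, held 0 matches. The matches of GBP1 and GBP3 sit in a run of 19 identical bases, gaagtactttcagtttcat. The core of a gamma-activated site (TTC, any 3 bases, GAA) was found in the window of GBP3 at -15 and in 7.67% of all promoters. The windows of 300 bases held 3 CpG sites in GBP1, 0 in GBP3 and 3 in GBP4, and the median promoter held 14. A match describes the letters only and is not evidence of binding.

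Libraries held between 21934307 and 22489684 estimated counts. Levels are given as CPM, counts divided by the library total after scaling with the TMM method, which corrects for composition. A gene with 3 counts in 1 library had at least 0.127 CPM. All 5 guanylate-binding proteins were among the 18532 genes that passed a filter on low counts and were tested. In the controls GBP4 and GBP5 had 1 to 3 counts per library, and GBP2 had 8, 7 and 19.8 estimated counts. GBP2, GBP4 and GBP5 thus passed the filter only through treated libraries, so being tested already depended on higher counts there. Every change was tested in 1 edgeR quasi-likelihood fit, and "called" means a Benjamini-Hochberg adjusted p under 0.05 over the 18532 genes. In these bulk libraries, more expressing cells and more RNA per cell cannot be told apart. Genes typical of PC-3 (the epithelial KRT8, KRT18 and EPCAM, with CD44 and the mesenchymal VIM) summed to 2075 to 2215 CPM in control, 1580 to 1671 in decitabine and 1395 to 1488 in combination libraries. VIM, most of the control sum, had log2 fold changes of -1.10 and -1.31 against the controls, and KRT8 of 1.14 and 0.80. STAT3 and the prostate-specific antigen gene KLK3 had 0 counts in all of them. Combination replicate 3 stood apart from the other 2 libraries of its group, with a chi-square statistic per degree of freedom of 23.5 and 15.1 against them, where those 2 gave 5.86 against each other. The largest values were 17.0 within the controls and 18.0 within the decitabine group. Changes of the 5 genes with the combination treatment are therefore given with and without it. For the interferon regulators, inflammasome genes and both lists of interferon targets, so are the counts of calls against decitabine. List counts of the combination treatment against the controls, and all counts of the other lists, are not given without it.

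Decitabine raised all 5 guanylate-binding proteins. Of all genes tested, 36.3% were called higher and 32.5% lower in this comparison. Their median log2 fold change was 4.85, against 0.035 over all genes tested. In each of the 5 genes the lowest decitabine library lay above the highest control, which held for 38.1% of all genes tested.
GBP5, which promotes inflammasome assembly, was at the edge of detection in the controls, with 1 count in each library. Decitabine replicates 1 to 3 had 148, 220 and 352 counts, or 6.26, 9.24 and 14.9 CPM. The ratio of counts to the controls was 204 with a 95% interval of 69.5 to 991 that covers counting error only. The fitted value, 7.52 on the log2 scale with a standard error of 1.40 (adjusted p = 0.0024), depends on a prior count and is no bound. Only 1.23% of all genes tested had a larger fitted value.
GBP1, the member that coats cytosolic bacteria, went from 0.794, 0.550 and 0.494 CPM in the 3 controls to 33.0, 42.1 and 58.0 CPM with decitabine. The fit gave 6.17 on the log2 scale with a standard error of 1.29 (adjusted p = 0.0050), and mean levels differed 72.4-fold. Decitabine libraries differed less than 2-fold among themselves and were all far above the controls.
GBP4 had 3, 2 and 1 counts in the controls. With decitabine it had 2.24, 3.04 and 3.81 CPM, all far above the controls. The fitted log2 fold change was 4.85 with a standard error of 0.76 (adjusted p = 0.00021).
GBP2 and GBP3 rose least. GBP2, known with GBP5 as an inhibitor of the protease furin, measured 0.397, 0.350 and 0.987 CPM in the controls and 2.79, 2.91 and 2.50 CPM with decitabine. Its log2 fold change was 2.23 (standard error 0.46, adjusted p = 0.00083). GBP3 was the only one of the 5 above 1 CPM in any control, at 24.0, 29.5 and 31.4 CPM. It reached 92.9, 100.2 and 100.9 CPM, which is 1.79 higher on the log2 scale with a standard error of 0.24 (adjusted p = 0.00024). The decitabine libraries were close to each other in both genes, with coefficients of variation of 7.75% and 4.5%, against 43.4% in GBP5.

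**Figure D1:**
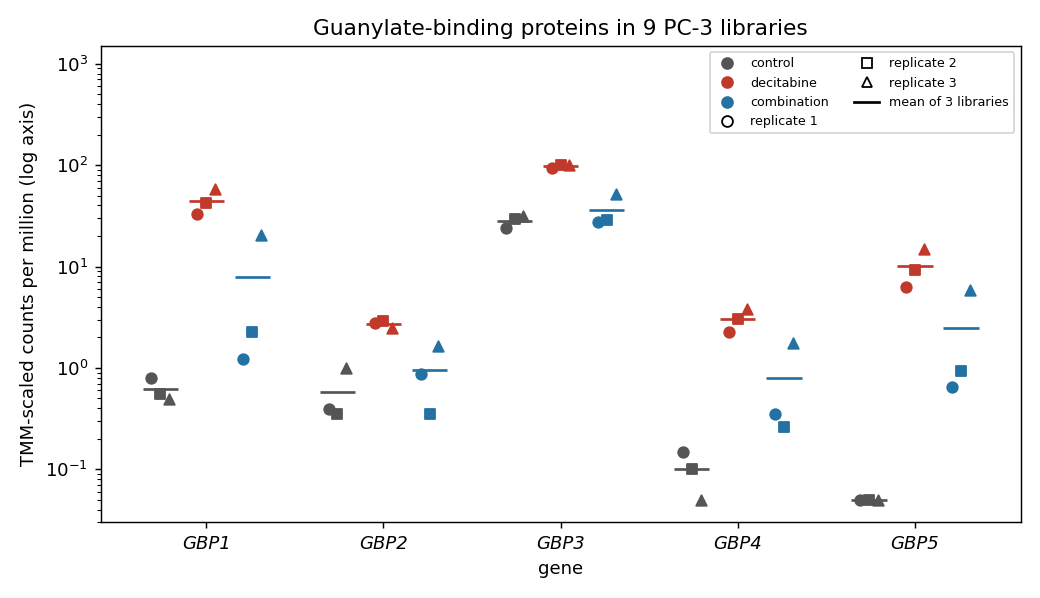
Level of each guanylate-binding protein in the 9 libraries, in TMM-scaled CPM on a log axis. Points are libraries, shapes give the replicate number and bars are means of 3 libraries. Every decitabine library lay above every control, and combination replicate 3 (blue triangle) lay above the other 2 combination libraries in all 5 genes.

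With the combination treatment, GBP4 and GBP5 were called higher than in the controls and the other 3 were not. In this comparison 35.9% of all genes tested were called higher and 31.3% lower. GBP1, GBP4 and GBP5 lay above the controls without overlap, as did 38% of all genes tested. The 5 had a median of 2.93 on the log2 scale, against 0.048 over all genes. These controls are the same libraries as in the comparison with decitabine alone.
GBP1 had 1.22 and 2.24 CPM in combination replicates 1 and 2 and 20.4 CPM in replicate 3. All 3 were above the highest control, yet the third was 33.3 times the control mean and the first only 1.99 times. The log2 fold change was 3.69 (standard error 1.44) with a 95% interval of 0.20 to 7.18 and an adjusted p of 0.060. It was called when any 1 combination library was left out, at 4.19 without replicate 1 (adjusted p = 0.027), 4.13 without replicate 2 (0.043) and 1.49 without replicate 3 (0.035).
GBP5 followed the same order of libraries, with 0.653, 0.924 and 5.88 CPM. Its fitted log2 fold change was 5.50 (standard error 1.66, adjusted p = 0.022), and the ratio of 174 counts to 3 was 50.6 with a counting interval of 17.0 to 248. It was 3.84 without combination replicate 3, still called, and was not called when any 1 of the 3 controls was left out.
GBP4 measured 0.348, 0.264 and 1.75 CPM. Its call rested on 2.93 on the log2 scale with a standard error of 0.91 (adjusted p = 0.015), which was 1.57 without combination replicate 3. The call was lost without control replicate 2 (adjusted p = 0.052) or control replicate 3 (0.063).
GBP2 and GBP3 overlapped the controls. GBP3 stood at 27.7 and 28.9 CPM in combination replicates 1 and 2, within the control range, and at 52.0 CPM in replicate 3. Its log2 fold change of 0.35 (95% interval -0.21 to 0.92, adjusted p = 0.23) fell to -0.0042 when replicate 3 was left out. GBP2 measured 0.871, 0.352 and 1.66 CPM, a log2 fold change of 0.73 (95% interval -0.38 to 1.84, adjusted p = 0.22). It was 0.076 without replicate 3, and it was called without combination replicate 2 (1.12, adjusted p = 0.034).

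**Figure D2:**
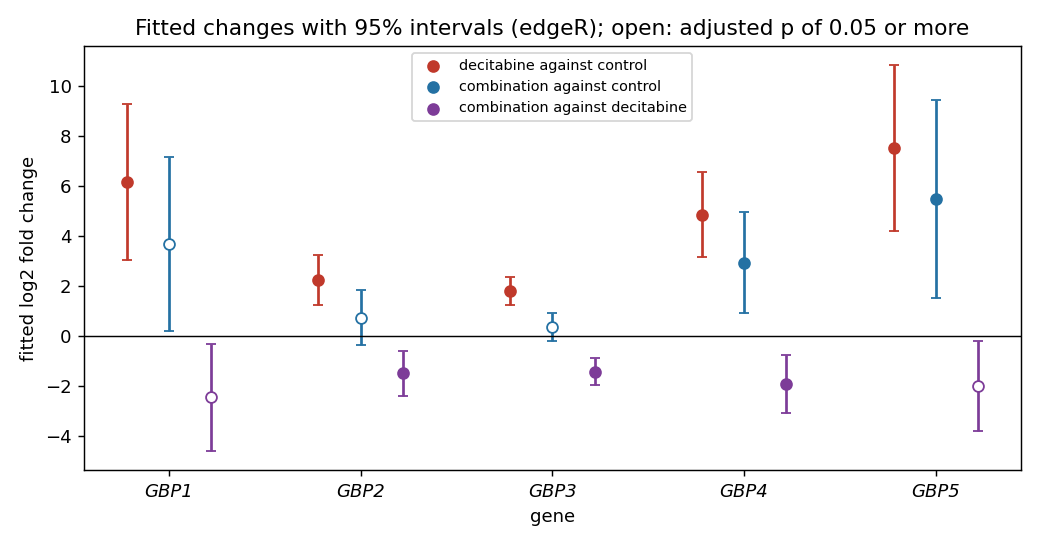
Fitted log2 fold changes of the 5 genes in the 3 comparisons, with 95% intervals from edgeR's quasi-likelihood fit over 9 libraries. Open points had an adjusted p of 0.05 or more. All 5 values lay above 0 with decitabine and below 0 for the combination treatment against decitabine.

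Set directly against decitabine, the combination treatment had lower levels of all 5 genes, and the libraries of both groups did not overlap in any of them. The groups were apart in this direction in 16.8% of all genes tested. GBP2, GBP3 and GBP4 were called lower, as were 8.02% of all genes, while 7.67% were called higher. The median log2 fold change of the 5 was -1.93, against 0.0021 over all genes tested. Between 0.119% and 1.03% of the genes tested had a lower fitted value than a given member.
GBP3 gave the firmest value, -1.44 on the log2 scale (95% interval -1.98 to -0.89, adjusted p = 0.0080). It was called in each of the 9 fits that left out 1 library, which ranged from -1.79 to -1.28. The 3 combination libraries stood at 28.3%, 29.4% and 53.0% of the decitabine mean.
GBP2 differed by -1.50 (standard error 0.41, adjusted p = 0.031). The call was lost without decitabine replicate 1 or 2 and without combination replicate 1 or 2. GBP4 differed by -1.93 (standard error 0.52, adjusted p = 0.034), and its call was lost in 7 of the 9 fits that left out 1 library, those without any 1 control, decitabine replicate 2 or 3, or combination replicate 1 or 2.
GBP1 had the largest fitted difference, -2.47, and was not called (standard error 0.89, 95% interval -4.62 to -0.32, adjusted p = 0.12). GBP5 was not called either, at -2.02 (standard error 0.75, 95% interval -3.81 to -0.22, adjusted p = 0.12), though it was with the replicate number as a block (adjusted p = 0.0062). The spread within the combination group was widest in these genes, with coefficients of variation of 136% in GBP1 and 118% in GBP5, against 37.9% in GBP3. Without combination replicate 3, GBP1 differed by -4.68 (adjusted p = 2.9e-05) and GBP5 by -3.67 (adjusted p = 0.00011), and all 5 genes were called lower. That fit called 21.5% of all genes tested in either direction, against 15.7% with all 9 libraries. The fits that left out another library called 4.53% to 15.8%. GBP1 in combination replicates 1 and 2 stood at 2.75% and 5.06% of the decitabine mean, and replicate 3 at 46.0%.

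**Figure D3:**
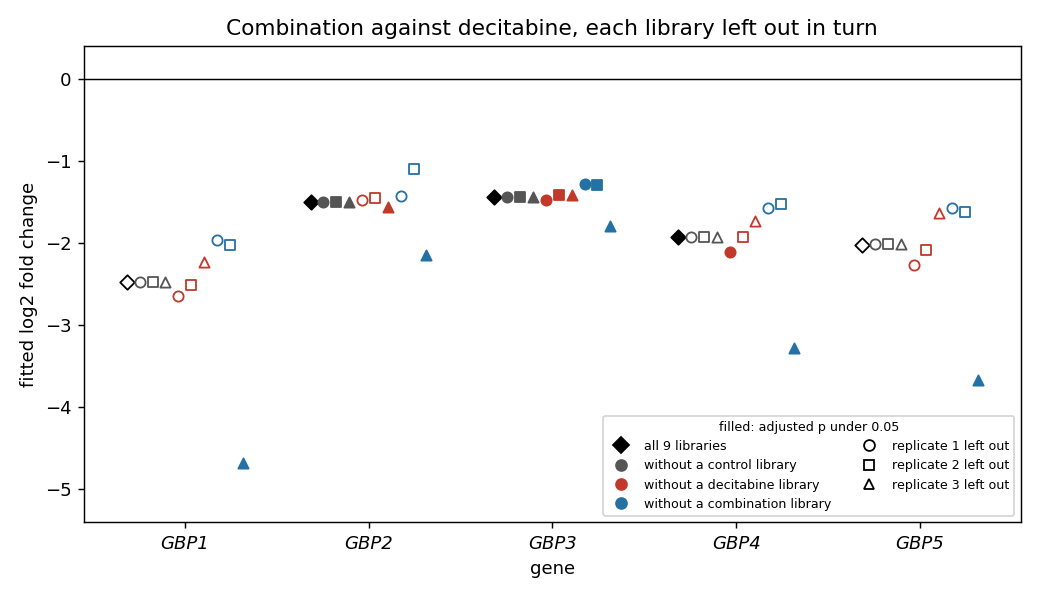
Fitted log2 fold change of the combination treatment against decitabine for each gene, with all 9 libraries (diamonds) and with 1 library left out. Colour gives the group of the library left out, shape its replicate number, and filled points had an adjusted p under 0.05. Every value was below 0, and leaving out combination replicate 3 moved all 5 genes further down, to -4.68 in GBP1.

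Per kilobase of canonical transcript, GBP3 led in every group. In the controls it had 9.32 ± 1.27 CPM per kb (SD, n = 3), followed by GBP1 with 0.213 ± 0.0554 and GBP2 with 0.141 ± 0.0868, whose libraries overlapped. GBP4 and GBP5 came last with 0.0162 and 0.00729 CPM per kb, an order that rests on 1 to 3 counts per library. With decitabine, GBP3 had 32.3 ± 1.45 CPM per kb and GBP1 15.4 ± 4.38. GBP5 moved to the third place with 1.49 ± 0.645, ahead of GBP2 with 0.669 ± 0.0518 and GBP4 with 0.493 ± 0.128, and the last 2 overlapped. With the combination treatment, GBP3 had 11.9 ± 4.51 CPM per kb and did not overlap GBP1 at 2.76 ± 3.74, while each of the other neighbours in the order overlapped.
The 5 genes together measured 9.69 ± 1.26 CPM per kb in control, 50.3 ± 6.36 in decitabine and 15.4 ± 8.96 in combination libraries. The makeup changed along with the sum. GBP3 made up 95.1% to 97.0% of the sum in the controls and 58.5% to 69.5% with decitabine. GBP1 went from 1.59% to 3.32% in the controls to 26.0% to 35.4% with decitabine. Combination replicates 1 and 2 kept a GBP3 share of 92.0% and 90.1%, and combination replicate 3, at 66.5%, lay within the decitabine range.

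**Figure D4:**
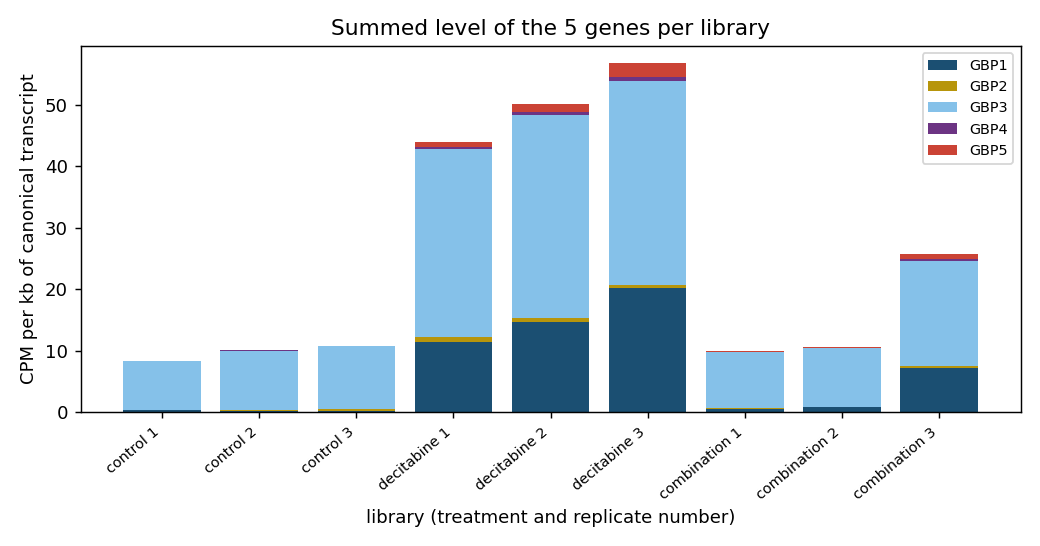
Summed level of the 5 guanylate-binding proteins in each library, in CPM per kb of canonical transcript, split by gene. Control libraries summed to between 8.30 and 10.8, decitabine libraries to between 44.02 and 56.8, and the combination libraries to 9.91, 10.6 and 25.7.

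Within the family, counts could be divided between near-identical copies, since kallisto assigns reads through k-mers of 31 bases. In GENCODE release 44, 15.0% of the 31-mers of GBP1 also occur in transcripts of another gene, with 8.66% in the pseudogene GBP1P1 and 6.86% in GBP3. For GBP2 the share was 10.6%, mostly with GBP7 (8.17%), for GBP3 it was 12.5%, mostly with GBP1 (9.48%), and for GBP4 it was 14.0%. GBP5 was the most distinct, with 4.30%. The remaining 31-mers of each gene were its own. GBP1P1 and GBP7 had few counts. GBP1P1 had 0 counts in the controls, 2, 9 and 10 with decitabine and 0, 1 and 4 with the combination treatment. GBP7 never passed 3 counts in a library, and GBP6 had at most 1 count in a control and 8 in a decitabine library. GBP6, GBP7 and GBP1P1 had too few counts to be tested, and the ratio of 18 counts of GBP6 with decitabine to 2 in the controls was 7.66 with a counting interval of 1.83 to 68.1.

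The genes around the cluster were read from the same fit. Within 1 Mb on either side of the 5 genes lie 11 other protein-coding genes, of which 8 were tested and GBP6, GBP7 and ENSG00000271949 were not. None of the 8 was called higher with decitabine in edgeR's quasi-likelihood test (0 at an unadjusted p under 0.05, 0 with DESeq2 and 0 with voom and limma), but 4 were with scaling by library size alone and 1 each without a filter on low counts or without decitabine replicate 3. Over all genes tested, that scaling moved the median change from 0.035 to 0.28. Log2 fold changes of the 8 ran from -0.64 in KYAT3 to 0.17 in LRRC8B, with a median of -0.15. Over all genes tested, 36.3% were called higher and 32.5% lower with decitabine, and 31.3% lower with the combination treatment. PKN2, a protein kinase, and KYAT3, a kynurenine aminotransferase, were called lower with both treatments. KYAT3 had -0.64 with decitabine and -1.15 with the combination treatment, and its span overlaps RBMXL1 on the same strand, so counts of the pair are uncertain. LRRC8C and ZNF326 were called lower with decitabine and not with the combination treatment. Between the treatments, ZNF326 was called higher (0.28, adjusted p = 0.039) and KYAT3 lower (-0.51, adjusted p = 0.011) with the combination treatment. Over all genes tested, 7.67% were called higher and 8.02% lower in that comparison.

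**Figure D5:**
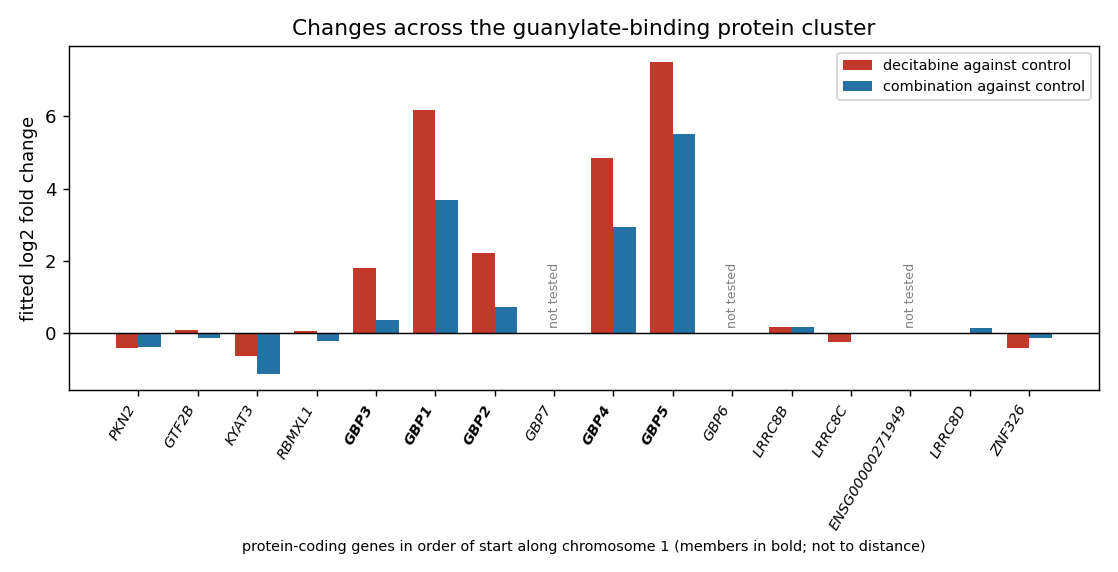
Fitted log2 fold changes against the controls for the protein-coding genes within 1 Mb of the guanylate-binding proteins, in order of their start along chromosome 1 and not to distance. The 5 genes, in bold, rose by 1.79 to 7.52 with decitabine, and the 8 other genes tested lay between -0.64 and 0.17.

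Genes that carry or restrain interferon signals to the guanylate-binding proteins were set beside them. The 17 listed genes were those of interferon-gamma, its receptor and kinases, the STAT and IRF factors, and the inhibitors SOCS1, SOCS3 and PTPN2. Of these, 14 were tested, and 11 rose with decitabine. Over all genes tested, 36.3% were called higher in this comparison. On the log2 scale IRF1 rose by 1.15, STAT2 by 2.16, IRF7 by 3.16, IRF9 by 2.21 and the feedback inhibitor SOCS1 by 2.46. JAK2, IFNGR2 and PTPN2 were not called. IFNG, the gene of interferon-gamma itself, had 0 counts in all 9 libraries, which is under the floor of 3 counts.
The combination treatment lowered 8 of the 14 against decitabine, among them JAK1, STAT2, IRF1, IRF2 and IRF7. Over all genes tested, 8.02% were called lower in this comparison. STAT2 had 66.9, 71.3 and 140.2 CPM in the combination libraries and 240.3 to 294 CPM in those of decitabine, a difference of -1.51 (adjusted p = 0.017). IRF1 stood at 17.6 and 16.4 CPM in combination replicates 1 and 2, next to 15.1 to 18.1 CPM in the controls, and had 24.7 CPM in replicate 3. Its difference from decitabine was -0.91 (adjusted p = 0.0018). Without combination replicate 3, 8 regulators were again called lower, with -1.94 in STAT2 and -1.11 in IRF1. There were 4 calls without decitabine replicate 2, combination replicate 1 or combination replicate 2, and 5 without decitabine replicate 1. Over all genes tested, calls in either direction made up 15.7% with all 9 libraries and 21.5% without combination replicate 3. They made up 5.3%, 7.18% and 4.53% in the fits with 4 calls and 9.4% in that with 5. The receptor subunit gene IFNGR1 was not called between the treatments, with log2 fold changes of 1.20 and 1.25 against the controls and a difference of 0.048 between the treatments (adjusted p = 0.83). IRF3, another gene called higher with both treatments, differed by 0.0015.

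Several genes that act with guanylate-binding proteins or in inflammasomes had 0 to 3 counts in the controls together. Of 14 listed, 12 were tested, and with decitabine 9 rose and GSDMD fell. Over all genes tested, 36.3% were called higher and 32.5% lower with decitabine. AIM2, a sensor of cytosolic DNA, had 2 counts in the controls and 284 with decitabine, a ratio of 121 with a counting interval of 33.1 to 1003. CASP1, the inflammatory caspase, had 3 counts in the controls and 396 with decitabine, a ratio of 112 with an interval of 38.2 to 547. PYCARD, the inflammasome adaptor, had 0 counts in the controls and 45 with decitabine, at least 12.8-fold higher with the floor of 3 counts set over the group. CASP4, the receptor for bacterial lipopolysaccharide, rose by 1.37. APOL3, which works with GBP1 against cytosolic bacteria, rose by 3.88.
Against decitabine, the combination treatment lowered CASP4, GSDMD, AIM2, NLRP3, APOL3 and RNF213, where 8.02% of all genes tested were called lower. AIM2 stood at 0.131, 0.352 and 1.66 CPM in the combination libraries and differed by -2.47 (adjusted p = 0.044), or by -4.02 without combination replicate 3 (0.00028). That omission gave 7 calls in this list. There were 2 calls without decitabine replicate 1 or 2 or without combination replicate 1 or 2, 3 without decitabine replicate 3, and 4 without any 1 control. Over all genes tested, 15.7% were called in either direction with all 9 libraries and 21.5% without combination replicate 3. Fits with 2 calls here called 4.53% to 9.4%, that without decitabine replicate 3 called 15.8%, and those without a control 11.6% to 14.9%. PYCARD and IL18 differed by -0.13 and -0.0076, and neither was called. GSDMD, which forms the pore of pyroptosis, fell from 82.9 to 95.8 CPM in the controls to 70.2 to 76.4 with decitabine and to 40.4 to 52.0 with the combination treatment.

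The enzymes that attach and process the prenyl anchor of GBP1, GBP2 and GBP5 changed little and mostly downwards. With decitabine, FNTA, FNTB, PGGT1B, RCE1 and ICMT fell, between -0.24 in FNTA and -0.65 in FNTB, and the protease ZMPSTE24 rose by 0.32. Over all genes tested, 32.5% were called lower and 36.3% higher with decitabine. Against the controls, the combination treatment had lower FNTA, FNTB, PGGT1B and ICMT, down to -0.71 in PGGT1B, and higher ZMPSTE24. In that comparison 31.3% of all genes tested were called lower and 35.9% higher. Adding SAM to decitabine gave higher RCE1, ICMT and ZMPSTE24, where 7.67% of all genes tested were called higher. ICMT, the methyltransferase that uses SAM to methylate prenylated proteins, had a difference of 0.23 (adjusted p = 0.037). It had 208 to 234 CPM with the combination treatment against 188 to 189 CPM with decitabine. The combination libraries stayed below the 252 to 277 CPM of the controls (-0.27, adjusted p = 0.0034). Among the atlastins, relatives of the guanylate-binding proteins that shape the endoplasmic reticulum, ATL1 rose by 2.13 with decitabine and by 2.36 with the combination treatment. The ATL1 libraries of both treatments overlapped, with a difference of 0.23 (adjusted p = 0.31). ATL3 was called higher with the combination treatment against both other groups, by 0.26 and 0.35, and ATL2 was called in none of the 3 comparisons.

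Other interferon targets were set beside the family. Of 12 listed interferon-gamma targets, 11 were tested. With decitabine 9 rose, the median was 3.24 and WARS1 fell by 0.89 on the log2 scale (log2 fold change -0.89). With the combination treatment 7 rose, and against decitabine CXCL10, PSMB8, TAP1, SECTM1, ICAM1 and CD274 were lower. Over all genes tested, 36.3% were called higher with decitabine and 35.9% with the combination treatment, and 8.02% were called lower between the treatments. IDO1, a tryptophan-degrading enzyme, had 0.435, 0.528 and 4.43 CPM in the combination libraries. It was not called against decitabine (-2.38, adjusted p = 0.080) until combination replicate 3 was left out (-4.28, 1.1e-06), and with that library left out 9 of the 11 were called lower. All 17 listed type I interferon-stimulated genes rose with decitabine (median 4.77), 15 rose with the combination treatment (median 2.49), and 12 fell when SAM was added to decitabine (median -2.17). The last count was 17 when combination replicate 3 was omitted. Omitting any 1 control gave 5 to 7, and omitting decitabine replicate 3 gave 5. Omitting combination replicate 1 gave 2, and omitting decitabine replicate 1 or 2 or combination replicate 2 gave 1. For both lists, the fit lacking combination replicate 3 called 21.5% of all genes tested in either direction, against 15.7% with all 9 libraries. Fits lacking a control called 11.6% to 14.9% of all genes, and that lacking decitabine replicate 3 called 15.8%. The share was 7.18% in the fit lacking combination replicate 1, and 4.53% to 9.4% in those that gave 1. The 17 together summed to 573 to 695 CPM in the controls, 8422 to 8751 CPM with decitabine, and 1338, 1495 and 3791 CPM in combination replicates 1, 2 and 3. Combination replicate 3 was thus the highest of its group in this sum as well. For the guanylate-binding proteins, whether the changes were larger or smaller than in these lists was not tested.

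Over the 9 libraries, the genes whose log2 CPM (0.5 CPM added) followed the mean standardised level of the 5 most closely included CFB, a processed pseudogene (ENSG00000233887), PARP10 and PSMB8-AS1, with Pearson's r of 0.996 to 0.990. CFB, complement factor B, averaged 0.844 CPM in control, 23.0 in decitabine and 4.91 in combination libraries. Those nearest to GBP5 alone were CASP1, HLA-F, ODF3B, HLA-B and HLA-C, and SLC15A3 was nearest to GBP1, with r = 0.999, and to GBP4, with r = 0.992. Among the 5 genes, r ran from 0.886 between GBP2 and GBP5 to 0.993 between GBP1 and GBP4. These points share their libraries and 3 treatment groups, so the values describe likeness only.
Markers of other cell types were checked alongside. Of the leukocyte markers, PTPRC, CD14 and CD68 were tested and called higher with both treatments. LYZ had too few counts to be tested and was lower with decitabine, at 4 counts in each control and 0, 3 and 0 counts. CD68 measured 38.1 to 47.8 CPM in control, 221 to 298 CPM in decitabine and 103.5 to 181 CPM in combination libraries, and PTPRC, which defines leukocytes, reached at most 1.26 CPM. CD3E had 0 counts in the controls and at most 0.084 CPM in any library. Endothelial markers (PECAM1, VWF and CDH5) summed to 9.88 to 10.6 CPM in the controls, 30.96 to 41.7 CPM with decitabine and 36.6 to 43.8 CPM with the combination treatment. Fibroblast markers (COL1A1, COL1A2, DCN and PDGFRB) summed to 3.26 to 5.25 CPM, 81.9 to 124 CPM and 66.4 to 96.6 CPM, mostly from COL1A1 and COL1A2. PDGFRB averaged 0.481, 0.366 and 0.478 CPM and was called in none of the 3 comparisons. The part of other cells in the levels of the guanylate-binding proteins was not tested.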

How the data were processed

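RNA was sequenced on the BGISEQ-500 platform from 3 control, 3 decitabine and 3 combination libraries of PC-3 cells, grouped by the treatment label. Per the labels and the study's methods, reads were filtered with Trim Galore 0.6.4 and counted with kallisto against GRCh38.p13. The deposited values used were estimated counts per gene, not normalized. The log2 CPM files of the same libraries were not used. Of 60617 identifiers, 60357 matched GENCODE release 44. Counts were rounded, filtered with filterByExpr and scaled with TMM. They were fitted over all 9 libraries with edgeR 4.0.16 (robust quasi-likelihood test, R 4.3.3, common dispersion 0.00977, Benjamini-Hochberg over 18532 genes). The code was also run on simulated counts with the same dispersion for all genes, which does not bear on the calls of the 5 genes. The study names voom and limma, used here as an alternative (limma 3.58.1), with DESeq2 1.42.0 as another. Standard errors were derived from the F statistic. Libraries of a group differed by more than sampling noise (chi-square per degree of freedom 5.86 to 23.5 over genes with at least 20 counts). Promoters were taken from RefSeq, and 3 of the 5 genes were matched.
The 5 genes and all lists were chosen with earlier results of these data known. Named genes were the 5, the genes of the fixed lists, protein-coding genes within 1 Mb, and the 5 genes most correlated with the mean of the 5 and with each. Counting intervals and floors cover counting error only. Tables and figures were made in Python 3.11.15. Results for some genes of the lists are not reported here.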

Additional observations from a re-analysis of the deposited data

How the results depend on the processing

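The 5 calls with decitabine against the controls were made under all 9 alternatives of scaling, tool, filter, samples, block and threshold, and in all 9 fits that left out 1 library (5 to 5 genes). For the combination treatment against the controls, 1 gene was called with voom and limma, without a filter and with only the 6 libraries compared, where GBP4 did not pass the filter. With the test against a log2 fold change of 1, 0 genes were called. In the test against no change, 3 had an unadjusted p under 0.05. Leaving out 1 library gave 0 to 4 calls. Over all genes tested, the first of these tests called 18.1% and the leave-one-out fits 61.7% to 67.5%, in either direction. GBP1 was also called in this comparison by DESeq2 (adjusted p = 0.00048) and when only library size set the scale (0.0496). For the combination treatment against decitabine, the test against a log2 fold change of 1 called 0, as it did of all 18532 genes. In the test against no change, 5 members had an unadjusted p under 0.05. Leaving out 1 library gave 1 to 5 calls, in fits that called 4.53% to 21.5% of all genes in either direction. GBP1 was also called with voom and limma (adjusted p = 0.035), and GBP4 was not called with only the 6 libraries compared (0.079). GBP3 with the combination treatment against the controls changed sign without combination replicate 3, and leaving out 1 library gave -0.0042 to 0.50. Of 756 counts of calls in the other gene lists, 77 moved by over 1.5 times, 25 of them in the test against a log2 fold change of 1. The causes of these shifts were not tested. With the replicate number as a block, 5, 2 and 4 genes were called in the 3 comparisons, and the fourth in the last was GBP5 (adjusted p = 0.0062). The numbers were not taken to pair the samples. Deviations from group means correlated at -0.017 to 0.233 in 9 same-numbered pairs and at -0.22 to 0.058 in 18 others. These ranges overlap, so they do not decide whether the numbers pair the samples. Between decitabine and the combination treatment every library correlated best with its own number (0.036 to 0.233), a hint from the data only. In the controls, GBP4 and GBP5 rest on 1 to 3 counts per library, which limits their fold changes.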
